A study of Mus musculus with 41 samples.

Results

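Expression of 32 mouse genes of the hypoxia response and glycolysis was followed across 29 brainstem tumors and 12 neurosphere cultures. The genes were taken from a named list, each matched by its symbol to a row of the deposited expression table, and all 32 were found among its 34591 entries. They comprise transcription factor subunits and regulators of the hypoxia pathway (Hif1a, Epas1, Vhl, Egln1, Egln3), transporters and enzymes of glucose and lactate metabolism (Slc2a1, Slc2a3, Hk1, Hk2, Gpi1, Pfkl, Pfkp, Aldoa, Tpi1, Pgk1, Pgam1, Ldha, Slc16a3, Pdk1) and other genes known to be induced when oxygen is low (Vegfa, Adm, Ankrd37, Ndrg1, Car9, Car12, Bnip3, Bnip3l, Ddit4, P4ha1, P4ha2, Ero1l, Kdm3a). Values are FPKM, fragments mapped to a transcript divided by its length and by the size of the library, so levels of different genes can be set side by side.

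The study compared tissue that expressed a tagged histone H3.3 whose lysine 27 is methionine (K27M), the mutation of diffuse midline gliomas in children, with tissue that expressed tagged wild-type H3.3 (WT-Tag). All tumors carried Nestin-creERT2, Trp53flox/flox and LSL-PDGFRαV544ins, a Cre-dependent mutant PDGF receptor alpha. Beside these, 20 tumors had H3f3aLSL-K27M-Tag/+ and 9 tumors had H3f3aLSL-WT-Tag/+. The neurospheres, floating cultures grown in conditions for neural precursor cells, came from the e15.5 embryonic forebrain or hindbrain with Nestin-cre and H3f3aLSL-K27M-Tag/+ or H3f3aLSL-WT-Tag/+, with 3 cultures in each of the 4 groups and neither the receptor nor the Trp53 alleles in the label. In every group Nestin regulatory sequence drove the Cre recombinase, as an inducible form in tumors only. Culture libraries are named by their experiment number (1 to 3) and tumors by their label number. Nothing in the labels says how many embryos went into a culture, so p-values measure the spread between these libraries.

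The pathway is read here through its transcripts. In the presence of oxygen, prolyl hydroxylases of the Egln family modify the alpha subunits HIF-1α (encoded by Hif1a) and HIF-2α (Epas1), and the Vhl protein then directs them to degradation. When oxygen falls the subunits accumulate as proteins, pair with Arnt and bind DNA elements with the core letters ACGTG or GCGTG. Their targets include glucose transporters, glycolytic enzymes, the vascular growth factor Vegfa and, as a feedback arm, Egln1 and Egln3. Because HIF activity is set mostly at the protein level, the transcript level of Hif1a itself is no measure of it. The tables hold no protein or oxygen measurement, and the sources used here do not give the oxygen the cultures were kept in.

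The libraries differed in relative depth, estimated from the nonzero values of 3018 genes seen in few libraries, where most values are taken as 1 fragment. Group medians ran from 0.796 (forebrain K27M) to 1.27 (WT-Tag tumors), and the lowest library was at 0.268 in the forebrain K27M group. Whether the cell content of the libraries moved this estimate was not tested. No libraries were identical. In WT-Tag tumors 8 and 9 the X-linked and Y-linked transcripts went against the labelled sex, and these are called the libraries labelled WT-Tag tumors 8 and 9 where a result rests on them. Markers of stem and progenitor cells summed to between 2104 and 2556 FPKM in all cultures, whereas those of microglia, endothelium and red blood cells summed to at most 2.66 FPKM, so the labelled culture type was borne out by its markers. The tumors, labelled as brainstem tumors, held markers of oligodendrocyte precursors (summing to 232 to 1460 FPKM) and of mature neurons (66.0 to 957 FPKM). In experiment 3 the WT-Tag cultures came from males and the K27M cultures from females, whereas all cultures of experiments 1 and 2 were from females.

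K27M hindbrain cultures had higher levels of most of the 32 genes than WT-Tag hindbrain cultures. On log2(FPKM + 1), tested with limma across 13190 genes, 14 members rose and 1 fell at an adjusted p under 0.05, against 8.42% of all genes that rose and 5.13% that fell. The median log2 change was 0.71 over the members and 0.09 over all genes tested, and 26 of the 32 changes were positive. An unadjusted p under 0.05 was reached by 26 members (30.8% of all genes), and 13.5% of all genes were called in either direction. The risers included the lactate exporter Slc16a3, the glucose transporter Slc2a3, the glycolytic enzymes Hk2, Aldoa, Pgk1 and Ldha, the oxygen sensor Egln3 and the secreted peptide Adm. The single member that fell was Epas1. The 6 libraries were apart, with every K27M culture above every WT-Tag culture, in 20 members (16.9% of all genes), and below in 3 (11.1% of all genes), namely Hif1a, Epas1 and Car9.

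**Figure D1:**
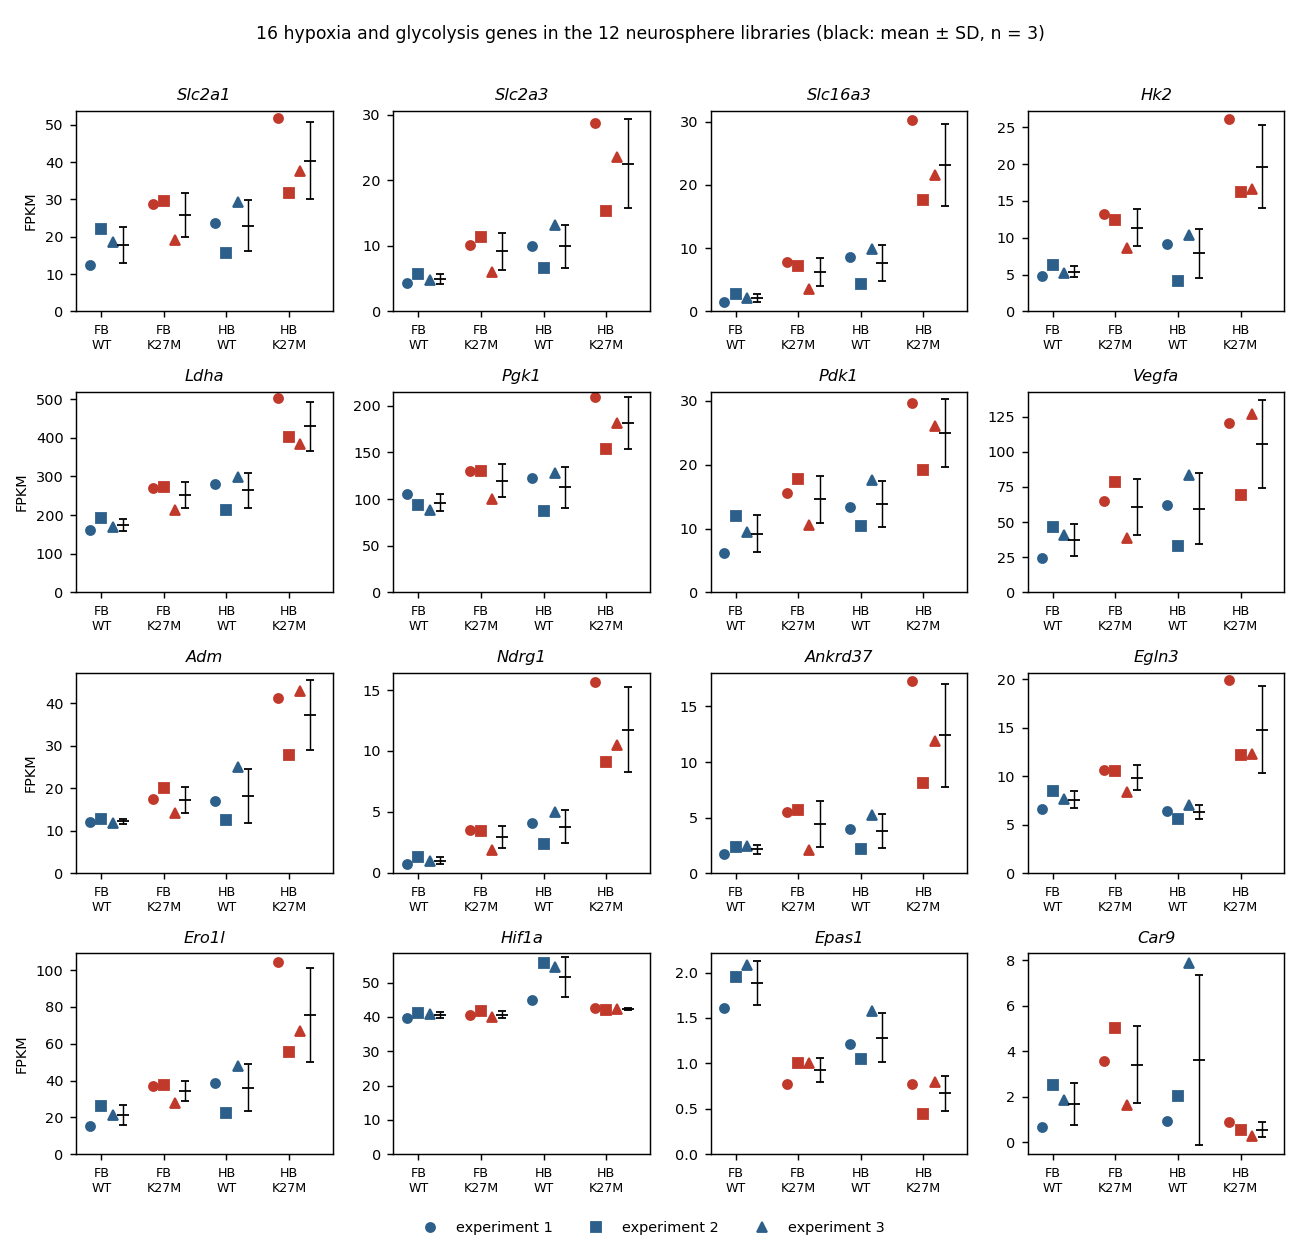
FPKM (y axis, linear) of 16 of the 32 genes in 12 neurosphere libraries of forebrain (FB) and hindbrain (HB), WT-Tag in blue and K27M in red, with marker shapes for experiments 1 to 3 and black bars for mean ± SD (n = 3). K27M hindbrain cultures stood highest for most genes, as for Slc16a3 at 17.6 to 30.3 against 4.38 to 9.80 in WT-Tag hindbrain cultures, whereas Hif1a lay between 41.9 and 42.6 in them and between 45.0 and 55.5 in WT-Tag.

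Among glucose and lactate genes the largest rise was in Slc16a3, which carries lactate out of glycolytic cells. Its level was 30.3, 17.6 and 21.6 FPKM in K27M hindbrain cultures of experiments 1 to 3 and 8.62, 4.38 and 9.80 in WT-Tag cultures. All K27M values exceeded all WT-Tag values, with a log2 change of 1.52 ± 0.31 (SE, limma adjusted p = 0.0122). Ldha, the lactate dehydrogenase subunit that turns pyruvate into lactate, was at 502, 402 and 385 FPKM against 281, 214 and 298, and rose by 0.70 ± 0.16 (limma adjusted p = 0.0174). Hk2, the hexokinase that responds to hypoxia, was at 26.2, 16.2 and 16.6 FPKM against 9.14, 4.11 and 10.4, and rose by 1.27 ± 0.29 (limma adjusted p = 0.0169). In both genes the groups were apart and the lowest library was WT-Tag hindbrain 2. The other hexokinase, Hk1, known as the housekeeping form in brain, was at 13.8 ± 2.59 FPKM in K27M and at 12.6 ± 4.75 in WT-Tag cultures (SD, n = 3 each), a log2 change of 0.17 that did not pass.

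The neuronal-type glucose transporter Slc2a3 was at 28.8, 15.3 and 23.6 FPKM in K27M and at 9.98, 6.69 and 13.2 in WT-Tag hindbrain cultures, a rise of 1.11 ± 0.28 (limma adjusted p = 0.0258) with the groups apart. The ubiquitous transporter Slc2a1 was at 51.8, 31.8 and 37.5 against 23.7, 15.8 and 29.4 FPKM. Its groups were apart as well, but its log2 change of 0.80 ± 0.27 did not pass (limma adjusted p = 0.0743). Among the other enzymes of glycolysis, Aldoa (aldolase, log2 change 0.76) and Pgk1 (phosphoglycerate kinase, 0.69) rose, whereas Tpi1 at 0.52, Pgam1 at 0.67, Gpi1 at 0.63 and Pfkl at 0.91 had positive changes that did not pass. The platelet-type phosphofructokinase Pfkp went the other way, at −0.26, also without passing. Pdk1, the kinase that turns off pyruvate dehydrogenase and so keeps pyruvate from the mitochondria, was at 29.6, 19.2 and 25.98 FPKM against 13.4, 10.4 and 17.7, with a log2 change of 0.81 ± 0.26 that missed the threshold (limma adjusted p = 0.0616).

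The promoters of 4 members are printed because these were past the threshold in the most comparisons, Slc16a3 in 5 and Adm, Ero1l and Ldha in 4 each. P4ha1 and Bnip3l were also past it in 4, and ties were broken by the larger log2 change. Each sequence is the 250 bases before the first listed start of the gene, 5′ to 3′ on its strand. The sequences are from a RefSeq table on GRCm38.p6, a later build than the mm9 named for the deposited values. Capitals mark the HIF core letters ACGTG and GCGTG on either strand (CACGT and CACGC on the other). CACGTG holds ACGTG on both strands, and the 2 matches overlap. Slc16a3 lies at chr11:120948817-120949066 (+), Adm at chr7:110627407-110627656 (+), Ero1l, listed by RefSeq as Ero1a, at chr14:45318573-45318822 (−) and Ldha at chr7:46845554-46845803 (+).
Slc16a3: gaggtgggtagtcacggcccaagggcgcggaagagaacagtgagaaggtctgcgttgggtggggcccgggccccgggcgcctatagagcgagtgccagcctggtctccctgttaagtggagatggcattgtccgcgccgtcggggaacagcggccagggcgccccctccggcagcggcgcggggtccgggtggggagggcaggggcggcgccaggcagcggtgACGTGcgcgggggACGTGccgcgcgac
Adm: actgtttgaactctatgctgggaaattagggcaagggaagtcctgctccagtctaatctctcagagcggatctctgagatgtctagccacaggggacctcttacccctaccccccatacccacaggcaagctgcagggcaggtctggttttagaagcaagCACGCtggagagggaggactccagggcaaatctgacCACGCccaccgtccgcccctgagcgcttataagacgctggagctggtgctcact
Ero1l: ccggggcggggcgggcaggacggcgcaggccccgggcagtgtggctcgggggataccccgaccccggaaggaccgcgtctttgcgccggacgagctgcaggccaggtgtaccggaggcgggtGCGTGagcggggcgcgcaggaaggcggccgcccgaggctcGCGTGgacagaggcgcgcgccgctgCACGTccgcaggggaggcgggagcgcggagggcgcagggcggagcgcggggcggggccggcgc
Ldha: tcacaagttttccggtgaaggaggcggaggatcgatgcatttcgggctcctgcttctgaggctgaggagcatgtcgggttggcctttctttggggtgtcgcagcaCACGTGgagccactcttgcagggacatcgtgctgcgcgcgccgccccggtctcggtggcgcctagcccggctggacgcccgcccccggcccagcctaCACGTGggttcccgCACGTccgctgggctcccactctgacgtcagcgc

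Of the 32 members, 28 matched an entry of the promoter table, and 21 of them (75%) held either motif in this window, against 38.6% of 27025 promoters of all genes. ACGTG was found in 16 (57.1%, all promoters 16.6%) and GCGTG in 14 (50%, all promoters 28.2%). The members' promoters were richer in G and C, with a median of 63.4% against 52%, and both motifs hold the letters CG. The part of base composition in the share was not tested. Among the 4 printed, Slc16a3 held ACGTG 2 times close to the start, Adm GCGTG 2 times, Ero1l both motifs, and Ldha 5 matches of ACGTG, 4 of them in 2 copies of CACGTG. The windows of Vegfa, Vhl, Hk1, Car12, Aldoa, Gpi1 and Tpi1 held neither. Only the first listed start of each gene was searched, for members and all genes alike. More starts were listed for Vegfa, Hk1, Ldha and Pdk1 (2 each) and for Aldoa and Kdm3a (3 each). A match is a string of letters and not a measured binding site.

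The regulators had changes of both signs in hindbrain cultures. Egln3, a prolyl hydroxylase that HIF itself induces, was at 20.0, 12.1 and 12.3 FPKM in K27M and at 6.43, 5.56 and 7.004 in WT-Tag cultures and rose by 1.08 ± 0.17 (limma adjusted p = 0.00479). Egln1, the main oxygen sensor of the family, had a log2 change of 0.39 that did not pass (limma adjusted p = 0.0786), and Vhl one of −0.09. Hif1a was at 42.6, 41.9 and 42.2 FPKM in K27M and at 45.0, 55.5 and 54.6 in WT-Tag cultures, all K27M values below all WT-Tag values, with a log2 change of −0.28 ± 0.09 that missed the threshold (limma adjusted p = 0.0607). Epas1 was low in every culture, at 0.774, 0.443 and 0.791 against 1.22, 1.05 and 1.58 FPKM, and fell by 0.45 ± 0.14 (limma adjusted p = 0.0497). Both alpha subunit transcripts had negative changes beside the positive changes of most listed targets. Of 9 other regulators tested, Hsp90ab1, a chaperone of HIF-1α, rose by 0.52 and none fell.

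Among the remaining targets, Ankrd37, a small ankyrin repeat protein, was at 17.3, 8.08 and 11.9 FPKM in K27M and at 3.996, 2.20 and 5.27 in WT-Tag hindbrain cultures and rose by 1.47 ± 0.34 (limma adjusted p = 0.0185). Ndrg1, a stress-responsive gene that is also abundant in myelinating cells, was at 15.7, 9.06 and 10.5 against 4.06, 2.34 and 5.003 FPKM and rose by 1.42 ± 0.26 (limma adjusted p = 0.00703). For both genes the groups were apart, with experiment 1 highest in K27M and experiment 2 lowest in WT-Tag. Adm, the vasodilator adrenomedullin, was at 41.2, 27.8 and 42.8 against 16.9, 12.5 and 24.98 FPKM and rose by 1.03 ± 0.23 (limma adjusted p = 0.0156). Ero1l, an oxidase of protein folding in the endoplasmic reticulum, was at 105, 55.8 and 66.8 against 38.4, 22.4 and 47.8 FPKM and rose by 1.06 ± 0.30 (limma adjusted p = 0.0387). Smaller rises were found for the collagen prolyl hydroxylase subunit P4ha1 (0.80), the mitophagy receptor Bnip3l (0.63) and the histone demethylase Kdm3a (0.61).

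Vegfa, the growth factor of blood vessels, was at 121, 69.6 and 127 FPKM in K27M and at 61.9, 33.0 and 83.4 with WT-Tag hindbrain cultures. The groups overlapped, since K27M culture 2 lay below WT-Tag culture 3, and the log2 change of 0.87 ± 0.38 did not pass (limma adjusted p = 0.147). Bnip3 at 0.83, P4ha2 at 0.71 and Ddit4 at 0.60 were likewise positive without passing. The carbonic anhydrases, enzymes that set extracellular pH, had negative changes. Car9, a standard marker of hypoxia, was at 0.884, 0.511 and 0.258 FPKM in K27M and at 0.930, 2.01 and 7.90 in WT-Tag cultures, lower in every K27M culture but with a log2 change of −1.28 ± 0.50 that did not pass (limma adjusted p = 0.110). Car12 had a change of −0.06.

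The number of members called changed with the libraries fitted, from 2 to 18 when 1 of the 6 hindbrain libraries was left out. Fits with fewer libraries have less power for every gene, here and in the comparisons below. The calls over all genes in such fits are not given here, so the weight of a library and lost power cannot be told apart. K27M hindbrain culture 1 was the highest of all 12 culture libraries in 22 of the 32 members (7.85% of all genes), and without it 2 members passed, Egln3 and Ndrg1. Without WT-Tag hindbrain culture 2 there were 4, and without K27M hindbrain culture 3 there were 5. Without experiment 3, the one in which sex differed between genotypes, there were 0 by limma. In that fit 25 members had an unadjusted p under 0.05, and the members' median log2 change was 0.87. The share and median over all genes are not given for that fit, and in the full fit they were 30.8% and 0.09. Egln3 and Ndrg1 passed in all 6 fits that left out 1 of the 6 hindbrain libraries and Hk2 and Slc16a3 in 5, whereas Aldoa and Epas1 passed in 1. All 15 called members kept their direction under every alternative. With no filter on low values 7 members passed, and with the hindbrain groups fitted alone 3.

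Markers of other cell types and states also differed between these groups. Of 10 astrocyte markers 8 fell, among them Aqp4 with a log2 change of −2.90 and Aldoc with −2.18, and their summed level was 323 to 365 FPKM with K27M against 613 to 853 with WT-Tag. Of 5 tested markers of mature oligodendrocytes 2 fell, with sums of 19.2 to 28.2 against 31.3 to 99.4 FPKM and Mog at 0 in all K27M cultures. Of 8 markers of oligodendrocyte precursors 3 fell and none rose, with a median log2 change of −0.55 and overlapping sums of 417 to 465 against 401 to 511 FPKM. Of 8 stem and progenitor markers 2 rose, Vim (1.16) and Nes (0.89), and 2 fell, Fabp7 and Prom1. All 11 proliferation genes had positive changes, but none passed, and their sums overlapped, at 547 to 716 against 362 to 704 FPKM. Of 16 genes of the unfolded protein and amino acid response 6 rose, among them Atf3 by 1.31 and Atf4 by 0.82. Their part in the result was not tested, and in cultures as in tissue fewer cells of a type and less RNA per cell cannot be told apart.

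Further genes of the same pathways gave a mixed picture in hindbrain cultures. Of 31 other HIF targets tested 6 rose and 1 fell, with a median log2 change of 0.32. The risers included Plod2, a collagen lysyl hydroxylase (0.81), Stc1, a secreted glycoprotein (0.70), Fam162a (0.68) and the corepressor Rcor2 (1.10), and the one that fell was the lipase inhibitor Angptl4 (−1.98). Of 15 other glycolysis genes none rose and 2 fell, the astrocyte aldolase Aldoc (−2.18) and the lactate dehydrogenase subunit Ldhb (−0.61), and their median was −0.05. The abundant glycolytic genes outside the 32 were Pkm2, at 838 ± 100 FPKM with K27M against 622 ± 108 with WT-Tag (SD, n = 3 each), and Gapdh, at 210 ± 37.4 and 162 ± 20.6, with log2 changes of 0.44 and 0.36 that did not pass. Of 27 genes of the respiratory chain 1 fell, Sdhb (−0.37), with a median of −0.12. These lists were picked with earlier results of the data known and are given as a description.

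**Figure D2:**
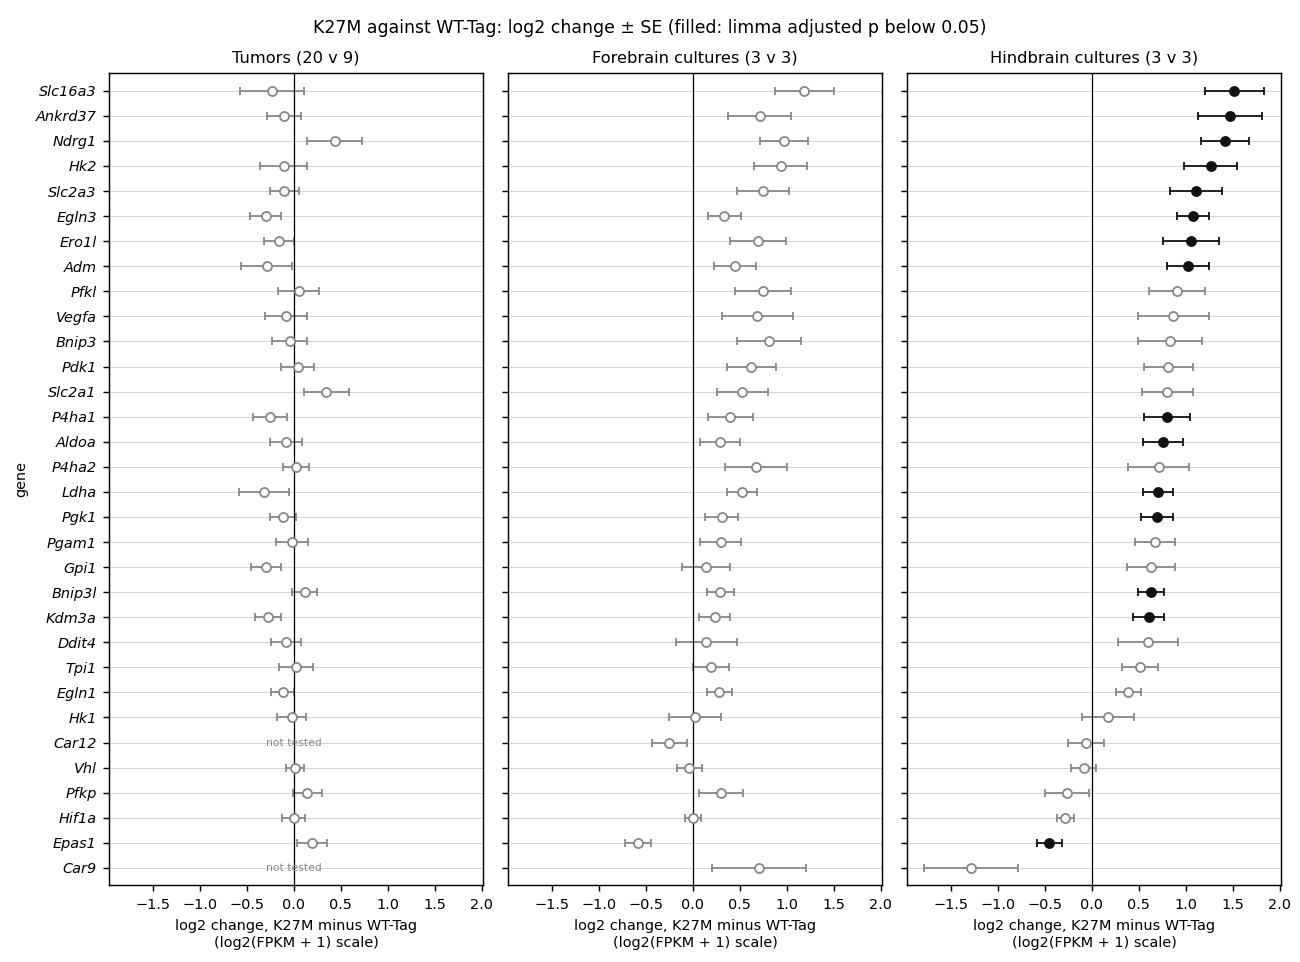
Log2 change of K27M against WT-Tag with its standard error (x axis, log2(FPKM + 1) scale) for each of the 32 genes (y axis) in tumors, forebrain cultures and hindbrain cultures, with filled points for a limma adjusted p under 0.05. Filled points appear in the hindbrain panel only, 14 to the right of 0 and 1 to the left, and Car9 and Car12 were not tested in tumors.

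In forebrain cultures no member was called between K27M and WT-Tag by limma, where 0.356% of all genes were (0.182% higher and 0.174% lower). An unadjusted p under 0.05 was reached by 10 members (13.1% of all genes). Of the 32 changes 29 were positive, with a median of 0.37 against 0.05 over all genes tested. Slc16a3 was at 7.84, 7.24 and 3.62 FPKM in K27M and at 1.45, 2.73 and 2.12 in WT-Tag forebrain cultures, with a log2 change of 1.19 ± 0.31 (limma adjusted p = 0.144). Ndrg1 was at 3.52, 3.46 and 1.90 against 0.709, 1.28 and 1.00 FPKM (0.97 ± 0.26, limma adjusted p = 0.144). Hk2 was at 13.2, 12.4 and 8.60 against 4.78, 6.29 and 5.19 FPKM (0.94 ± 0.29, limma adjusted p = 0.205). In these genes, as in Egln1, Ldha, Slc2a3, Adm and Ero1l, every K27M forebrain culture lay above every WT-Tag one, 8 members in all (15% of all genes), and culture 3 was the lowest K27M library in all of them but Egln1.

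Ldha in forebrain cultures was at 270, 273 and 213 FPKM with K27M and 162, 191 and 170 with WT-Tag (0.53 ± 0.16, limma adjusted p = 0.205). Vegfa, at 60.7 ± 20.0 and 37.2 ± 11.5 FPKM (SD, n = 3 each), Slc2a1 and Pdk1 had log2 changes of 0.69, 0.53 and 0.62 that did not pass. Hif1a did not differ measurably, at 40.7 ± 0.963 and 40.6 ± 0.829 FPKM, a log2 change of 0.00 ± 0.09. Epas1 was at 0.772, 1.00 and 1.00 FPKM with K27M and 1.62, 1.95 and 2.09 with WT-Tag, the 1 member (9.84% of all genes) with every K27M value below every WT-Tag value (−0.58 ± 0.14, limma adjusted p = 0.112). Of 10 astrocyte markers all had negative changes in the forebrain, with a median of −0.91, and 2 fell, Agt and Mlc1. Positive changes, none of which passed, were found in all 11 proliferation genes (median 0.38), in 12 of 16 stress response genes (median 0.34) and in 7 of 8 stem and progenitor markers (median 0.24), medians that lie near or below the members' own. The part of these genes in the members' values was not tested.

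Whether the K27M effect differed between the regions was tested as an interaction. By limma no member differed (0.0379% of all genes did), and 3 of the 32 had an unadjusted p under 0.05 (6.3% of all genes), Hif1a, Egln3 and Car9. The signed difference, forebrain minus hindbrain, was negative in 28 members, with a median of −0.33 against −0.04 over all genes. The largest was that of Car9, at 1.99 on the log2 scale (limma adjusted p = 0.598), where Car9 was at 3.41 ± 1.70 FPKM in K27M and at 1.68 ± 0.936 in WT-Tag forebrain cultures and had the opposite order in hindbrain cultures. A call in the hindbrain and none in the forebrain therefore does not show that the effects differed.

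Within each genotype, some of the members were higher in hindbrain than in forebrain cultures. Among WT-Tag cultures 2 of 32 members rose and none fell, Ndrg1 by 1.23 ± 0.26 (limma adjusted p = 0.0337) and Slc16a3 by 1.43 ± 0.31 (limma adjusted p = 0.0441), where 1.11% of all genes rose, 0.713% fell and 1.82% were called in all. The median log2 change was 0.40 against −0.04 over all genes. Every hindbrain culture lay above every forebrain culture in 8 members (5.99% of all genes) and below in 1, Epas1 (8.69%). Neither of the 2 called genes passed when the experiment was fitted as a replicate block, which gave 0 members, nor without experiment 3. Leaving out any of the 3 forebrain cultures or hindbrain culture 3 gave 0 members, leaving out hindbrain culture 1 gave 1, Hif1a, and leaving out hindbrain culture 2 gave 2.

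Among K27M cultures 10 members rose from forebrain to hindbrain and none fell, where 4.47% of all genes rose, 3.45% fell and 7.92% were called in all. The largest rises were in Slc16a3 (1.76 ± 0.31, limma adjusted p = 0.00566) and Ndrg1 (1.68 ± 0.26, limma adjusted p = 0.00250), followed by Ankrd37 (1.33), Slc2a3 (1.21), Ero1l (1.08), Adm (1.06), P4ha1 (0.88) and Bnip3l (0.81), and then by Ldha and Tpi1. Every hindbrain culture lay above every forebrain culture in 24 members (16.6% of all genes) and below in 1, Car9 (15.3% of all genes). Vegfa (0.80), Hk2 (0.72), Pdk1 (0.74) and Slc2a1 (0.62) had positive changes that did not pass, and those of Hif1a (0.05) and Epas1 (−0.21) were small. Slc16a3, Ndrg1 and Bnip3l passed in all 6 fits that left out 1 culture, and the count was 3 without hindbrain K27M culture 1 or forebrain K27M culture 3, 4 without forebrain K27M culture 1 or hindbrain K27M culture 3, 6 without forebrain K27M culture 2, and 0 without experiment 3. The labels give each forebrain culture the letter of 1 hindbrain culture of the same genotype and experiment. With that letter as a replicate block, in a fit of these 2 groups alone, 4 members passed. The experiment number pairs the same cultures, and its block was fitted with all 12 culture libraries. Of 10 astrocyte markers 3 fell and 1 rose in this comparison, with sums of 444 to 534 FPKM in the forebrain and 323 to 365 in the hindbrain, and their part in the result was not tested. The region comparisons use the same libraries as the genotype comparisons above and are not independent of them.

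The order of the 4 culture groups was shared by most members. The mean was highest in K27M hindbrain cultures for 26 of the 32 genes and lowest in WT-Tag forebrain cultures for 27, against 37.4% and 24.3% of all genes tested. Both held for 25 members (78.1%, all genes 18.5%). Mean Slc16a3 was 2.10 ± 0.637, 6.23 ± 2.28, 7.60 ± 2.85 and 23.2 ± 6.46 FPKM in WT-Tag forebrain, K27M forebrain, WT-Tag hindbrain and K27M hindbrain cultures (SD, n = 3 each). The middle pair, K27M forebrain and WT-Tag hindbrain, lay within their spread of each other. WT-Tag forebrain culture 1 was the lowest of the 12 libraries in 19 members (5.85% of all genes), and its relative depth of 0.412 was the lowest of its group. K27M forebrain culture 1, at a lower depth of 0.268, was the lowest in 1 member (4.35% of all genes). The part of depth in these values was not tested.

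**Figure D3:**
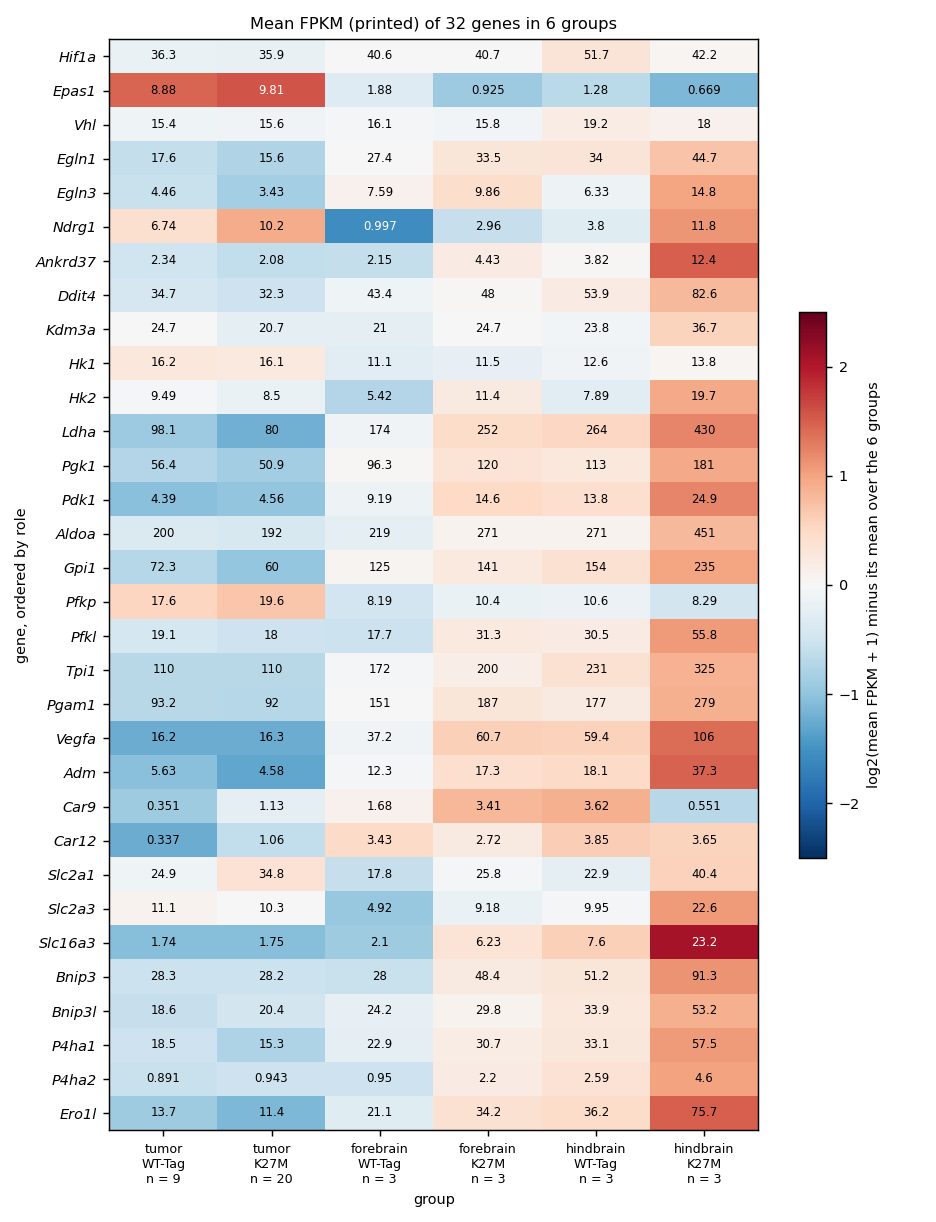
Mean FPKM (printed numbers) of the 32 genes (rows) in the 6 groups (columns), coloured by log2(FPKM + 1) minus the gene's mean over the groups. For most genes the K27M hindbrain column is the highest and the tumor columns are low, with the reverse for Epas1, at 0.669 in K27M hindbrain cultures and 9.80 in K27M tumors.

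In tumors the 32 genes did not separate K27M from WT-Tag. Of the 30 members that passed the filter on low values, which Car9 and Car12 did not, 0 were called by limma and 0 had an unadjusted p under 0.05, where 0.0846% and 7.19% of 15360 genes did. The changes were positive in 10 and negative in 20, with a median of −0.08 against −0.01 over all genes. No member had groups that did not overlap, and neither did any of the 15360 genes (0%). Hif1a ranged from 24.5 to 50.7 FPKM (median 36.7) in 20 K27M tumors and from 25.7 to 56.0 (median 35.7) in 9 WT-Tag tumors (log2 change −0.00 ± 0.12). Vegfa ranged from 9.26 to 60.1 (median 12.2) and from 9.05 to 22.7 (median 16.98), a change of −0.09. The ranges overlapped, with the library labelled WT-Tag tumor 9 above all K27M tumors for Hif1a and K27M tumors 15 and 22 (60.1 and 30.8 FPKM) above all WT-Tag tumors for Vegfa.

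Ldha ranged from 34.9 to 249 FPKM (median 70.6) in K27M tumors and from 37.1 to 182 (median 77.6) in WT-Tag tumors (log2 change −0.32 ± 0.27). Slc2a1 ranged from 11.6 to 114 (median 29.8) and from 15.6 to 38.0 (median 22.2), a change of 0.35 ± 0.24. Ndrg1 ranged from 2.09 to 19.2 (median 9.93) and from 2.53 to 12.1 (median 5.95), a change of 0.44 ± 0.29. None of these passed, nor did Epas1 (0.19), Hk2 (−0.11) or Pdk1 (0.04). Kdm3a had the smallest unadjusted p of the members, 0.051, with a change of −0.28 (limma adjusted p = 0.698). All alternatives, each of the 29 tumors left out in turn included, gave 0 members. Markers of mature oligodendrocytes, neurons and astrocytes had mostly positive changes in K27M tumors (9 of 9, 11 of 11 and 9 of 10, with medians of 0.96, 0.59 and 0.44), and none was called. Their part in the members' values was not tested.

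Members differed in their spread between tumors of one group. The SD of Slc16a3 on the log2 scale was larger than that of 96.2% of genes tested among K27M and 88.2% among WT-Tag tumors. In the same order these shares were 93.8% and 75.2% for Ndrg1, 90.1% and 82.3% for Adm, 88.0% and 86.3% for Ldha and 82.2% and 87.3% for Hk2. They were lower in WT-Tag tumors for Slc2a1 (88.1% and 54.6%) and Vegfa (83.8% and 64.5%), and Slc2a3 was in the middle of all genes (55.5% and 45.5%). Slc16a3 ranged from 0.210 to 13.4 FPKM with a median of 0.619 in K27M tumors and from 0.256 to 3.85 with a median of 1.19 in WT-Tag tumors. K27M tumor 15 was the highest of the 29 tumors in 9 of 30 members (4.32% of all genes), among them Vegfa at 60.1, Slc16a3 at 13.4, Slc2a1 at 114 and Ldha at 249 FPKM. Car9 was at 16.3 FPKM in that tumor, where the median of K27M tumors was 0.195 and the next highest tumor was at 1.26. The library labelled WT-Tag tumor 9 was the highest in 10 members (12.1% of all genes), and K27M tumor 14 the lowest in 9 (16.9% of all genes).

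**Figure D4:**
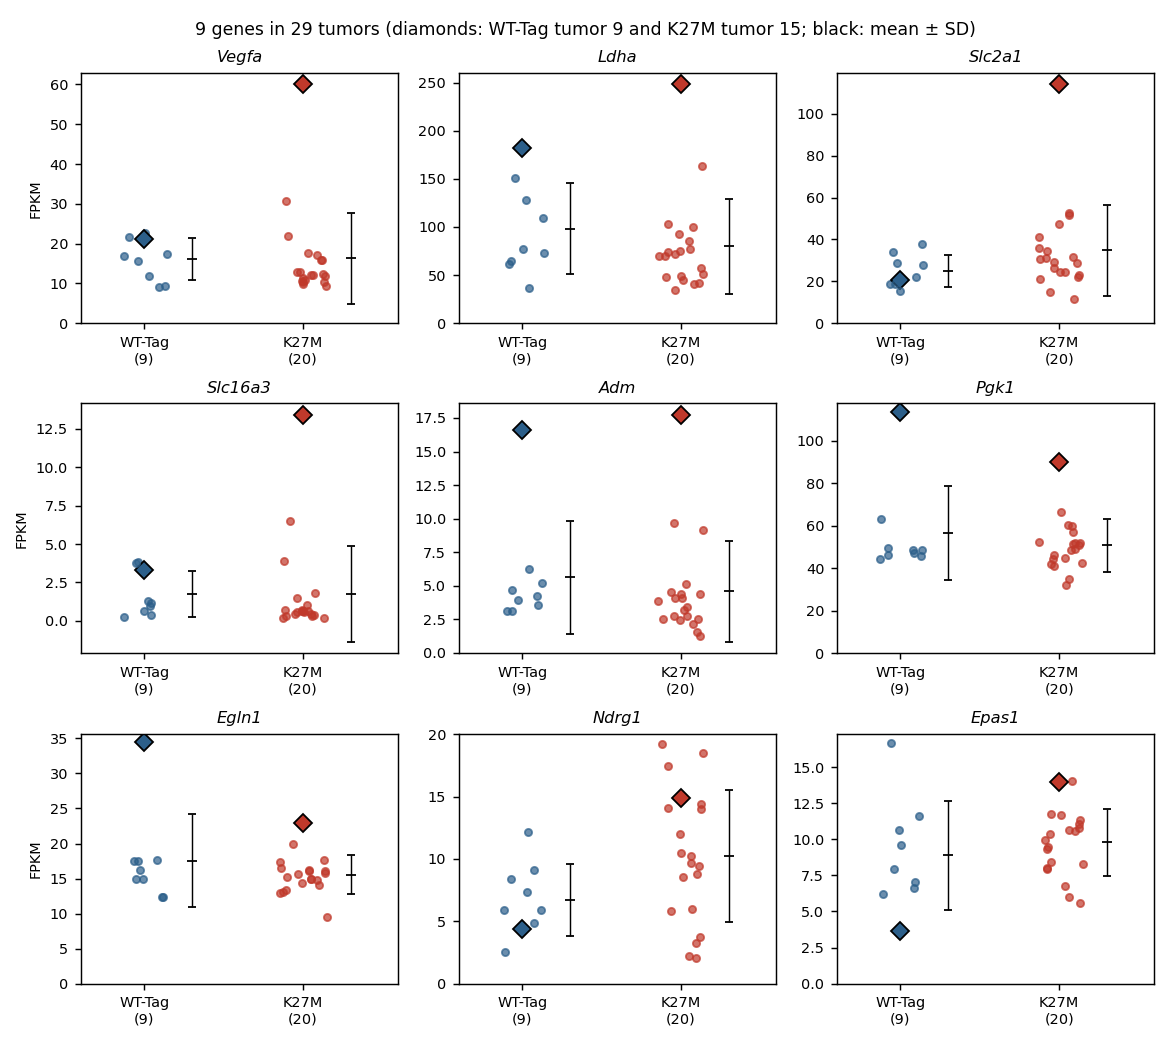
FPKM (y axis) of 9 of the genes in 20 K27M (red) and 9 WT-Tag (blue) tumors, 1 point per tumor, with black bars for mean ± SD and diamonds for K27M tumor 15 and the library labelled WT-Tag tumor 9. The groups overlap in every panel, and K27M tumor 15 stands alone in Vegfa at 60.1.

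The tumors that stood apart also differed in marker levels. The library labelled WT-Tag tumor 9 had the highest summed proliferation markers of all tumors (447 FPKM) and the highest stem and progenitor markers (1253 FPKM), and the lowest neuron (66.0) and astrocyte (152) sums. K27M tumor 15 had the highest endothelial sum (64.3 FPKM, in a group that ranged from 21.96) and the highest stem and progenitor sum of its group (1020 FPKM). Both tumors were picked because their member values stood apart, and the part of the markers in those values was not tested. Without both tumors, an alternative chosen after the data were seen, 0 members were called between the genotypes.

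Tumors had lower levels of most of these genes than hindbrain cultures of the same histone genotype. In K27M, 24 of the 32 members fell and 2 rose from culture to tumor, where 26.5% of 16803 genes fell and 33.1% rose (59.6% in all), and the median log2 change was −1.52 against 0.10 over all genes. In WT-Tag, 18 fell and 2 rose, where 17.4% of genes fell and 28.9% rose (46.3% in all), with medians of −0.84 and 0.16. Every tumor lay below every culture in 20 members for K27M (15.8% of all genes) and 8 for WT-Tag (8.81%), and above in 2 (20.6%) and 1 (20.3%). Slc16a3 fell by 3.52 ± 0.48 in K27M (limma adjusted p = 1.4e-07) and by 1.77 ± 0.52 in WT-Tag (limma adjusted p = 0.00571). Falls in both genotypes, K27M given first, were also found for Adm (−2.96 and −1.64), Vegfa (−2.74 and −1.78), Ero1l (−2.61 and −1.39), Ldha (−2.58 and −1.56) and Pdk1 (−2.27 and −1.497). Ankrd37 (−2.13) and Gpi1 (−1.997) were the next of the largest falls in K27M, and Car12 (−1.86) and Car9 (−1.496) were among those in WT-Tag.

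The members that rose were Epas1 and Pfkp. Epas1, the HIF-2α gene, was at 9.80 ± 2.32 FPKM over the K27M tumors (SD, n = 20), against 0.669 ± 0.196 in K27M hindbrain cultures (n = 3), and rose by 2.67 ± 0.22 in K27M (limma adjusted p = 1.5e-12) and 2.03 ± 0.24 in WT-Tag (limma adjusted p = 1.5e-08). Pfkp rose by 1.11 ± 0.23 and 0.70 ± 0.25 (limma adjusted p = 9.9e-05 and 0.0195). The WT-Tag call of Pfkp was lost without hindbrain culture 1 or 2 (limma adjusted p up to 0.165) and with libraries centred on their median. Hif1a fell in WT-Tag, by 0.53 ± 0.18 (limma adjusted p = 0.0136), a call lost without hindbrain culture 2 or 3 (limma adjusted p up to 0.0695), and its change of −0.25 in K27M did not pass. The WT-Tag call of Car9 was lost without hindbrain culture 3, with a change of −0.87 (limma adjusted p = 0.193). The glucose transporter Slc2a1 had changes of −0.35 in K27M and 0.10 in WT-Tag that did not pass, nor did Ndrg1 (−0.34 and 0.64) or Hk1 (0.17 and 0.37). Hk2 fell in K27M, by 1.20, a call lost without hindbrain culture 1 (limma adjusted p = 0.0528), and had a change of 0.17 in WT-Tag.

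Genes of the same pathways outside the 32 fell and rose. Of 16 other glycolysis genes tested in K27M, 4 fell, among them the enolase Eno1 (−2.28) and the phosphoglucomutase Pgm2 (−1.61), and 8 rose, among them Aldoc (3.76), an astrocyte form, and Eno2 (3.45), a neuronal form. Of 36 other HIF targets 14 fell, led by Fam162a (−3.04) and Ier3 (−2.30), and 6 rose, led by Nrn1 (2.59). All 11 proliferation genes fell in both genotypes, as did 7 of 8 stem and progenitor markers. All 10 microglial, 9 endothelial and 9 mature oligodendrocyte markers rose. The tumors held cells that the cultures lacked, and tissue, growth in culture, the form of Cre, the receptor allele and Trp53 loss cannot be told apart in this comparison.

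Whether the K27M effect differed between tumors and hindbrain cultures was tested in 1 fit of all 41 libraries, a test added after the data were seen. It called 1 of 32 members, Egln3, where 0.583% of 16803 genes were called. Egln3 had a K27M effect lower by 1.38 ± 0.34 on the log2 scale in tumors (limma adjusted p = 0.0489), with means of 3.43 ± 1.42 FPKM for 20 K27M and 4.46 ± 1.82 for 9 WT-Tag tumors (SD) and the rise in hindbrain cultures given above. The difference was negative in 26 members. The call was lost in 26 of the 35 fits that left out 1 library (limma adjusted p from 0.0145 to 0.370 over the fits), with a pseudocount of 0.1, with libraries centred on their median, and without the libraries labelled WT-Tag tumors 8 and 9, each of which gave 0 members. For the other 31 members a difference between the settings was not shown.

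Vegfa was followed through the 29 tumors to ask which of the genes varied with it. The family held 39 relations, 29 members and 10 marker lists, each tested by permutation of the tumors (100000 resamples, 2-sided) on log2(FPKM + 1). Pearson's r was positive for 24 members with a median of 0.38, and 11 had a permutation adjusted p under 0.05. Of all genes tested in tumors, 89.1% had a lower r than Pgk1 (0.38) and 43.8% a lower r than Pfkp (−0.0024). The share of all genes that would pass is not given here, for these tumors or the subsets below. The closest were Slc16a3 (r = 0.70, Spearman's rho = 0.46), Adm (0.66, 0.50), Pdk1 (0.64, 0.55), Ankrd37 (0.63, 0.50) and Ldha (0.63, 0.48). Hif1a had r = 0.55 and rho = 0.56, Epas1 r = 0.04 and Ndrg1 r = −0.03. By rank, 2 passed, Hif1a and Pdk1 (permutation adjusted p = 0.0421 for both), and 0 passed with libraries centred on their median or without the libraries labelled WT-Tag tumors 8 and 9. Within the 20 K27M tumors 4 passed by rank, Ankrd37 (rho = 0.80), Pdk1 (0.62), Ldha (0.62) and Egln1. No marker list passed over the 29 tumors.

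The number of members that passed by Pearson's r changed with the tumors included. Without the 2 tumors farthest from the median of Vegfa, K27M tumor 15 at 60.1 FPKM and K27M tumor 22 at 30.8, the median r was 0.30 and 0 members passed, with 10 at an unadjusted permutation p under 0.05. Without K27M tumor 15 alone, chosen after the data were seen, the median r was 0.25 and again 0 passed. Within the 20 K27M tumors 9 members passed, with K27M tumor 15 among them, and within the 9 WT-Tag tumors 0 passed with a median r of 0.41. Across all 15360 genes tested in tumors, the 10 most like Vegfa by Pearson's r over 29 tumors were Zcchc3 (0.77), Adamts1 (0.73), Ftsjd1 (0.73), Map3k15 (0.71), Zbtb22 (0.71), Klf3 (0.71), Tead3 (0.71), Ier3 (0.71), Rasip1 (0.70) and Mdfi (0.70), and none of the 32 was among them. Of the members, Slc16a3 ranked 14, Adm 36, Pdk1 64, Ankrd37 72 and Ldha 78 among these genes. At the other end Ddit4 ranked 9369, Bnip3l 11771 and Vhl 12525. These values describe these tumors, and all share the same high library.

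**Figure D5:**
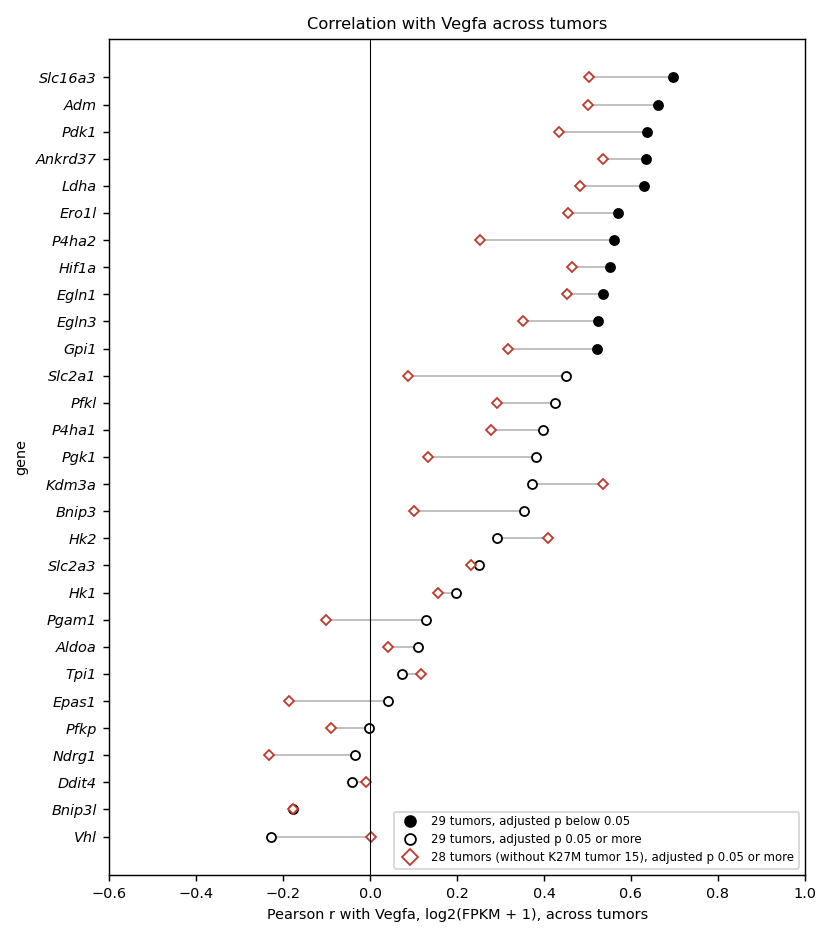
Pearson's r of each member with Vegfa (x axis) over 29 tumors and over the 28 tumors without K27M tumor 15, as keyed by marker, on log2(FPKM + 1). The values move toward 0 for most genes without that tumor, with the median going from 0.38 to 0.25.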

How the data were processed

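Per the labels' protocols, RNA was taken up in Trizol and made into libraries by a TruSeq Stranded Total RNA kit. Per the submitters' processing notes, reads were handled with CASAVA, TopHat2 and STAR and the genome was mm9, with roles and versions not stated. How reads were counted, with which annotation and by strand or not, was not given in the sources used here. Values of overlapping or antisense genes and close paralogs are therefore uncertain. The authors deposited 1 table of FPKM values with 34591 entries for 41 libraries, 974 of them at 0 in every library. FPKM values are not counts, and no count model was used. Pseudogene copies of glycolytic genes may share reads with them.

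The limma package (3.58.1, R 4.3.3) was fitted to log2(FPKM + 1) using its mean-variance trend, with 2-sided tests, Benjamini-Hochberg adjustment over all genes tested and a threshold of 0.05. This scale understates the change of low genes. Tumors were fitted alone (15360 genes, those with 9 or more libraries at an FPKM of 1 or above). The 12 cultures were fitted together (13190 genes, 3 or more libraries), and all 41 libraries for tumors against cultures (16803 genes, 3 or more libraries). A permutation test of a single value with 3 against 3 cannot go below 0.1. Values are mean ± SD and log2 changes ± SE. The steps were tested on simulated data. Permutation tests, tables and figures used Python 3.11.15 with numpy 2.4.6, scipy 1.17.1, pandas 2.3.3 and matplotlib 3.10.9.

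Same-numbered experiments deviated together between hindbrain genotypes (r = 0.41, 0.15 and 0.44) and between WT-Tag regions (0.67, 0.71 and 0.16). Values were of both signs between forebrain genotypes (0.44, −0.23 and 0.35) and between K27M regions (0.22, −0.05 and −0.04). Libraries of different number reached 0.68, for K27M forebrain 3 and WT-Tag hindbrain 2. The main fits took no pairing, and the experiment number was a block in an alternative only. Named with full statistics were at most 8 called members per direction, and Hif1a, Epas1, Vegfa, Slc2a1, Ldha, Hk2, Pdk1 and Ndrg1 in every comparison, at most 4 called genes of each other list, the 10 genes most like Vegfa and the promoters of at most 4 members called in the most comparisons. Other members and genes named were chosen after their values were seen. The members and lists were chosen with earlier results of these data known. Alternatives were another pseudocount, no filter, libraries centred on their median, no trend, single groups, blocks, and each library left out.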

Additional observations from a re-analysis of the deposited data

Results flagged for a closer look

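Within the 9 WT-Tag tumors, a single tumor lay far from the other 8 in 10 members. Such a gap arises by chance in about 1 in 20 groups tested if values are normally distributed, and the rate for FPKM values was not tested. The 32 members were tested in the same tumors, so these values are not independent of each other. The library labelled WT-Tag tumor 9 was the highest in 8 of the 10 members. It had Egln1 at 34.4 FPKM where the next tumor was at 17.6, Pgk1 at 113.4 (next 63.3), Ankrd37 at 5.77 (next 2.55) and Adm at 16.6 (next 6.23). It also had P4ha1 at 38.1 (next 20.0), Pfkl at 54.0 (next 22.9), Pgam1 at 172 (next 110.9) and Ero1l at 32.1 (next 15.9). In the remaining pair of genes other tumors stood out, WT-Tag tumor 11 with Car9 at 1.09 (next 0.576) and WT-Tag tumor 26 with Car12 at 0.822 (next 0.384). These 2 genes were low in all WT-Tag tumors.

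The K27M effect on Egln3 differed between tumors and hindbrain cultures by −1.38 on the log2 scale in a test of that difference (limma adjusted p = 0.0489).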

How the results depend on the processing

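Counts of members called for K27M against WT-Tag were 0 under every alternative run in tumors and in forebrain cultures, and so was the count for the interaction. In hindbrain cultures the count of 15 became 7 with no filter, 0 without experiment 3, 3 with the 2 groups alone, and 2 to 18 with 1 library left out. With the experiment as a replicate block it stayed at 15. For WT-Tag hindbrain against forebrain the count of 2 became 0 with no filter, with the replicate block and without experiment 3. With the 2 groups alone it was 0, and 1 with the culture letter as block in that fit. With 1 library left out it was 0 to 2. For K27M hindbrain against forebrain the count of 10 became 5 with no filter, 0 without experiment 3 and 9 with the replicate block. It was 4 with the culture letter as block in the 2 groups alone, and 3 to 10 with 1 library left out. Within a genotype the letter and the experiment number pair the same cultures. The replicate block changed no other count by over 1.5 times. For tumors against cultures the counts stayed within 1.5 times. For the K27M effect in tumors minus that in hindbrain cultures, the count of 1 became 0 with a pseudocount of 0.1, with centring and without the libraries labelled WT-Tag tumors 8 and 9, 2 without K27M tumor 15 and WT-Tag tumor 9, and 0 to 2 with 1 library left out. Of the relations with Vegfa, 0 passed in WT-Tag tumors alone, without the 2 tumors farthest from the median, without K27M tumor 15, and without K27M tumor 15 and WT-Tag tumor 9. The cause was not tested.

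Log2 changes near 0 changed sign. For K27M against WT-Tag in tumors, Hif1a was 0.0021 with centring, 0.11 without WT-Tag tumors 8 and 9 and 0.053 without K27M tumor 15 and WT-Tag tumor 9, and −0.056 to 0.080 with 1 tumor left out. In the same comparison Vegfa was 0.050 without WT-Tag tumors 8 and 9, and Pdk1 −0.027 to 0.13 with 1 tumor left out. In forebrain cultures Hif1a was −0.042 with centring and −0.016 to 0.016 with 1 library left out. For the interaction, Vegfa was 0.063 without experiment 3, and with 1 library left out Vegfa was −0.47 to 0.18, Pdk1 −0.42 to 0.013 and Hk2 −0.55 to 0.027. For WT-Tag tumors against hindbrain cultures, Slc2a1 and Hk2 were −0.14 and −0.072 with centring, and −0.13 to 0.30 and −0.18 to 0.40 with 1 culture left out. The table gives no counts, and its depth limits values under 1 FPKM most, as for Epas1 and Car9 in cultures.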
